A study of Rattus norvegicus with 6 samples.

Results

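The sarcoplasmic reticulum calcium genes of H9C2 cells were examined here as a set of 10 genes chosen by symbol in the deposited count table, which lists 19825 genes. They are the pump inhibitor Pln, the calcium pumps Atp2a1 and Atp2a2, the ryanodine receptors Ryr1 and Ryr2, the inositol trisphosphate (IP3) receptors Itpr1, Itpr2 and Itpr3, the store buffer Casq2 and the store sensor Stim1. All 10 had a row, and 8 passed the filter on low counts. Each of those 8 had at least 65 counts in every library of both groups, so none entered the test through its level in a single group.

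Messenger RNA was sequenced in 6 libraries of H9C2, a line derived from the heart of a rat embryo that grows as myoblasts; the labels name it as cardiomyocytes. In 3 libraries (siPUM2 1, 2 and 3) the RNA-binding protein PUM2 had been knocked down with transfected small interfering RNA. The 3 control libraries (NC 1, 2 and 3) came from cells whose treatment label names an empty vector transfection, so by the labels the groups also differ in the kind of nucleic acid delivered. Both groups are the same line, and no genotype, time after transfection or dose is given. No label states that the libraries within a group are from different cultures, so the spread behind each p-value is that of these libraries and could be technical.

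The sarcoplasmic reticulum is the calcium store of muscle cells. ATP-driven pumps of the SERCA family fill it from the cytosol, and phospholamban, the small membrane protein encoded by Pln, slows the cardiac pump until it is phosphorylated. Inside the store calcium is held loosely by calsequestrin. It leaves through ryanodine receptors, which drive contraction, or through IP3 receptors, which answer to hormones and growth factors, and STIM1 senses an emptied store and opens entry channels in the plasma membrane.

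The libraries held 27704702 to 30579237 counts, so that 1 count was worth 0.0327 to 0.0361 CPM (counts scaled to a fixed library total) before TMM factors. The CPM of genes below include those factors. Pum2 was at 127, 126 and 120 CPM in siPUM2 1, 2 and 3 and at 223, 228 and 225 CPM in NC 1, 2 and 3, which left 55.1% of the control level. Markers that define adult heart muscle were nearly missing in both groups. Of 12 cardiomyocyte marker genes with a row, 7 stayed under 1 CPM in every library, among them Myl2 (0 to 1 count a library), Myh7 (0 to 3 counts) and Actc1 (0 to 7 counts). Tnnt2, at 474 ± 32.4 CPM in siPUM2 and 298 ± 28.8 CPM in NC (SD, n = 3 each), was the exception with a high level; the cardiac transcription factor genes Nkx2-5 and Gata4 were also present, Nkx2-5 at 17.9 CPM in siPUM2 and 19.7 CPM in NC and Gata4 at 9.52 CPM in siPUM2 and 10.4 CPM in NC. The store genes below are therefore those of cells in which most of these heart markers were under 1 CPM. The name myoblast comes from the description of the line and not from these markers.

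The stretches upstream of 3 of the genes that rose are shown because these genes, an inhibitor, a pump and a buffer, are typical of striated muscle. Each is the 250 bases before the RefSeq start site in assembly GRCr8, which is newer than the build of the counts, printed 5′ to 3′ on the strand of the gene. All 10 members had a window in the RefSeq table. Capitals mark the matches found among 5 motifs searched on both strands: the CArG box, the MEF2 site, AGATAA as read by GATA factors, TATAAA as in the core promoter element, and CAGCTG, an E-box. A motif that reads the same on both strands was counted once per position. The windows are Pln (chr20:33172244-33172493, plus strand), Atp2a1 (chr1:190475411-190475660, minus strand) and Casq2 (chr2:192214306-192214555, plus strand).
Pln: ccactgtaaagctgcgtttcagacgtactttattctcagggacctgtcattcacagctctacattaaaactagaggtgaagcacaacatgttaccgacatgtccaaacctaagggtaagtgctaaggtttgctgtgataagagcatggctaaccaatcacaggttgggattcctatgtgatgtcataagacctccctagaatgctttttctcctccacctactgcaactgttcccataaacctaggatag
Atp2a1: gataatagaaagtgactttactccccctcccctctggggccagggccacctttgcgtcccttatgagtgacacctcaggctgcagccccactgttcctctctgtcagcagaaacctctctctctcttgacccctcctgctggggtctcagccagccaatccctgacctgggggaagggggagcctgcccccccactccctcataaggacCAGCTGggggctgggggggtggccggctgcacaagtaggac
Casq2: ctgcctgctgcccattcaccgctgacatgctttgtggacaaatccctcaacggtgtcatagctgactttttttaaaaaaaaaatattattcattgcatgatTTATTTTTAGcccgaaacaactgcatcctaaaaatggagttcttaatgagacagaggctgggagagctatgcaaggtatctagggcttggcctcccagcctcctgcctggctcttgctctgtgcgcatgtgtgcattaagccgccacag

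Casq2 held 1 MEF2 site, beginning 149 bases before the start, a motif present in 2.96% of 33469 rat promoter windows of the same length. Atp2a1 held 1 E-box, beginning 41 bases before the start, where 12.0% of the windows hold that sequence. None of the 5 motifs was found in the window of Pln or of any of the other 7 members, which says only that these letters are not there. The background shares of the other motifs were 1.50% for the CArG box, 10.3% for AGATAA and 12.9% for TATAAA. The matches are descriptions of sequence, and no binding was measured.

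Most of the tested members had higher messages in siPUM2. Of the 8 tested members 6 rose, none fell, and 2 did not pass the test. Among all 12985 genes tested, 28.4% were called in either direction, 15.1% as higher in siPUM2 and 13.3% as lower. The median log2 fold change was 0.44 for the 8 tested members and 0.001 for all genes tested. The siPUM2 and NC values did not overlap for 7 of the 8, each with the siPUM2 libraries higher, while of all tested genes 39.9% did not overlap, 20.7% with siPUM2 higher and 19.2% with siPUM2 lower. The members were chosen with earlier results of these data known, so the contrast with all genes is no test of the set. Calls are those of edgeR's quasi-likelihood test at an adjusted p under 0.05, with Benjamini-Hochberg adjustment over all genes tested. In bulk RNA, a change in the share of cells that express a gene and a change in the RNA per cell cannot be told apart.

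**Figure D1:**
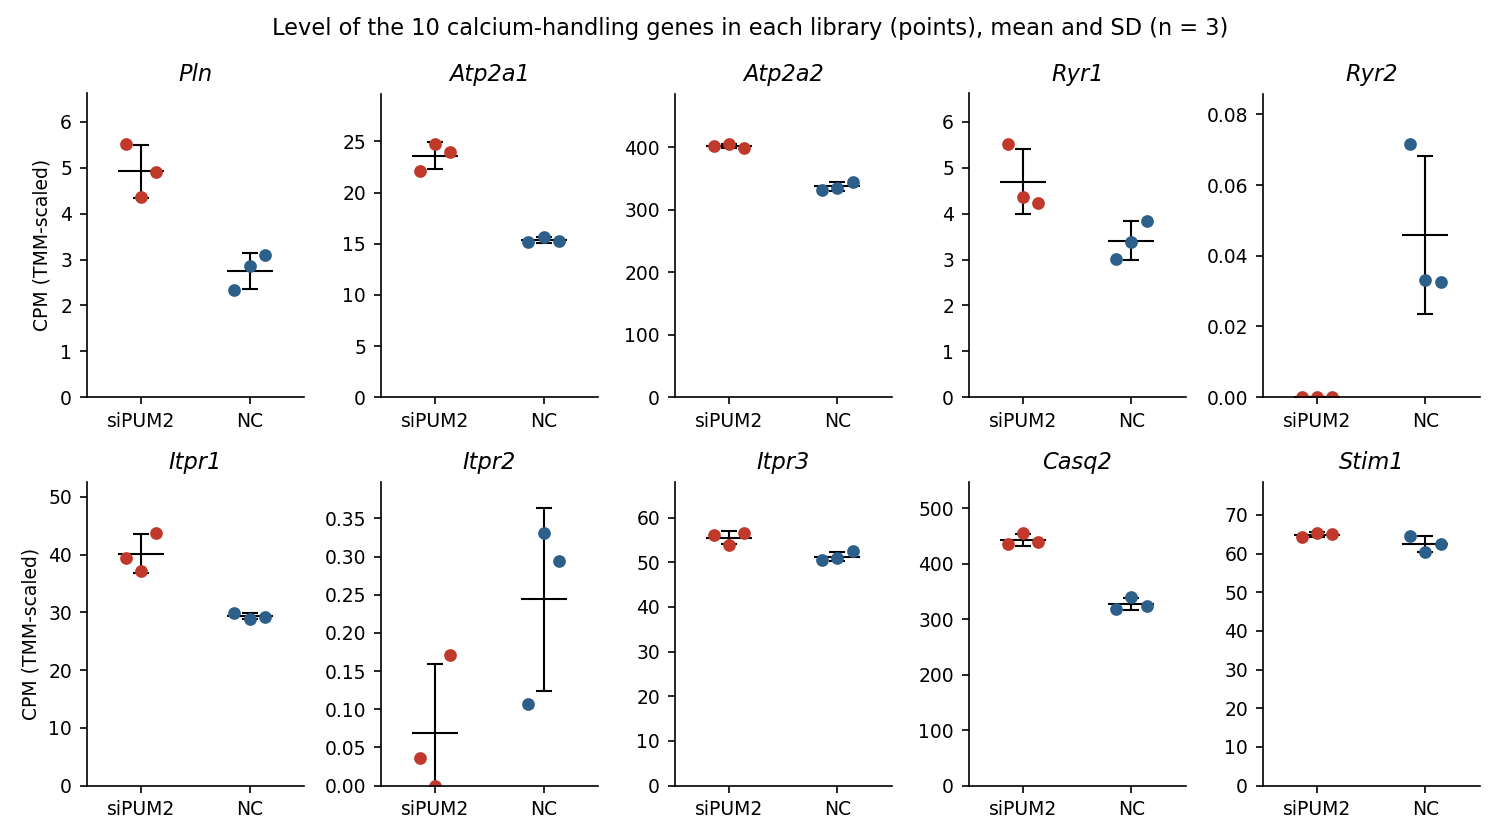
CPM (TMM-scaled, linear axes from 0, a scale for each gene) of the 10 genes in every library, with siPUM2 in red at the left and NC in blue at the right; black bars give the mean and SD (n = 3). The siPUM2 points lie above every NC point for Pln, Atp2a1, Atp2a2, Ryr1, Itpr1, Itpr3 and Casq2, and overlap them for Stim1, while Ryr2 and Itpr2 reach at most 0.331 CPM.

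Pln (chromosome 20), which encodes phospholamban, had the largest log2 fold change of the tested members in the count fit, while on log2(FPKM + 1) Atp2a1 (0.51) came above it (0.48). It was at 5.52, 4.36 and 4.91 CPM in siPUM2 1, 2 and 3 and at 2.33, 2.85 and 3.10 CPM in NC 1, 2 and 3. Every siPUM2 library was above every NC library. The means were 4.93 ± 0.580 CPM in siPUM2 and 2.76 ± 0.394 CPM in NC (SD, n = 3 each), a log2 fold change of 0.83 ± 0.149 (SE; 1.78-fold, 95% interval 1.44 to 2.20; adjusted p = 8.03e-05, edgeR). The level rested on 121 to 155 counts in the siPUM2 libraries and 65 to 95 counts in the NC libraries, and the exact Poisson interval of the lowest of these, 65 counts in NC 1, ran from 50.2 to 82.8 (counting error only). The rise was among the least precise of the set, and its interval on the log2 scale (0.53 to 1.14) overlapped that of Atp2a1 (0.49 to 0.75). In RefSeq, Pln overlaps Cep85l, a longer gene at 12.5 CPM in siPUM2 and 12.1 CPM in NC that did not pass the test (adjusted p = 0.725, edgeR). Whether the counting used strand is not given in the sources used here, so reads in the shared interval could belong to either.

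The calcium pumps rose with it. Atp2a2 (chromosome 12), the gene of SERCA2, the pump of heart and of most other cells, was at 401, 405 and 398 CPM in siPUM2 1, 2 and 3 and at 332, 335 and 345 CPM in NC 1, 2 and 3. The groups were narrow and apart, with a log2 fold change of 0.25 ± 0.0252 (SE; 1.19-fold, adjusted p = 8.93e-09, edgeR). Atp2a1 (chromosome 1), the gene of SERCA1, the pump of fast skeletal muscle, was at 22.1, 24.7 and 24.0 CPM in the siPUM2 libraries and at 15.2, 15.7 and 15.3 CPM in the NC libraries. It also separated the groups, with a log2 fold change of 0.62 ± 0.0623 (SE; 1.54-fold, adjusted p = 1.06e-08, edgeR). In RefSeq, Atp2a1 overlaps Rabep2, a gene at 41.8 CPM in siPUM2 and 39.7 CPM in NC that did not pass (adjusted p = 0.326, edgeR). The doubt over strand therefore holds for Atp2a1 and for its share of pump message as well. Atp2a3, the gene of SERCA3 and not a member, was at 3.08 ± 0.583 CPM in siPUM2 and 2.60 ± 0.108 CPM in NC (SD, n = 3 each) and did not pass (adjusted p = 0.315, edgeR).

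Levels of different genes were compared only per length, in the authors' FPKM (fragment counts scaled for gene length and library depth). The SERCA genes summed to 68.9 ± 0.829 FPKM in siPUM2 and 56.8 ± 1.14 FPKM in NC (SD, n = 3 each). Atp2a2 made up 90.5 ± 0.546% of the sum in siPUM2 and 92.3 ± 0.203% in NC. Atp2a1 made up 8.19%, 8.96% and 8.87% of it in siPUM2 1, 2 and 3 and 6.87%, 7.03% and 6.68% in NC 1, 2 and 3. The skeletal form thus held a larger share of the pump message in each siPUM2 library, although the cardiac form made up at least 90.1% of the pump message in all 6. With 3 libraries against 3, the exact two-sided permutation test gave p = 0.10, the smallest it can give in this design.

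The inhibitor rose by more than the pump it binds. Pln FPKM came to 3.27%, 2.56% and 2.93% of Atp2a2 FPKM in siPUM2 1, 2 and 3 and to 1.67%, 2.02% and 2.14% in NC 1, 2 and 3. Every siPUM2 library was higher. On the log2 scale the ratio differed by 0.59, a 1.51-fold higher ratio in siPUM2 (exact two-sided permutation p = 0.10, again the smallest possible). Pln message remained a small part of pump message in both groups. Protein levels and phosphorylation were not measured.

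**Figure D2:**
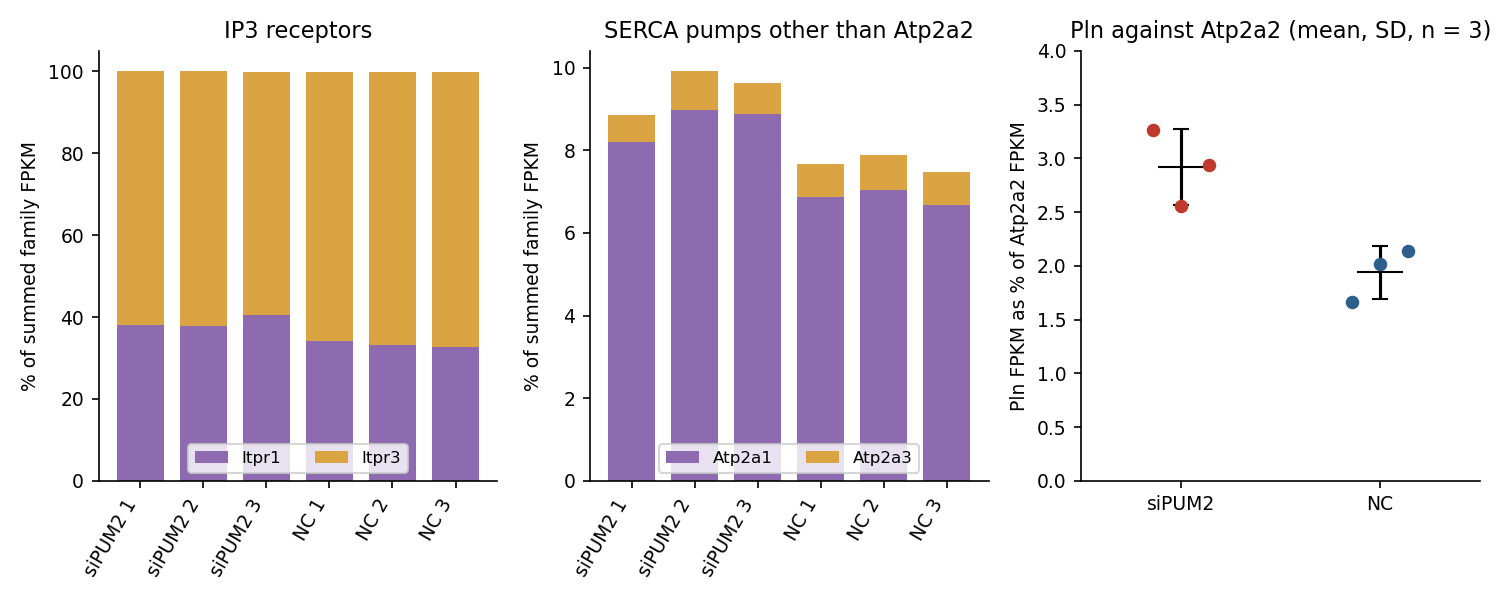
Left and middle: share of the summed family FPKM in each library (bars from 0, siPUM2 1 to 3 then NC 1 to 3), for Itpr1 and Itpr3 among IP3 receptors and for Atp2a1 and Atp2a3 among SERCA pumps, Atp2a2 making up the rest. Right: Pln FPKM as a percent of Atp2a2 FPKM, with points for libraries and bars for mean and SD (n = 3); the siPUM2 points run from 2.56% to 3.27% and the NC points from 1.67% to 2.14%.

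Of the release channel genes, Ryr1 and Itpr1 were called higher, Itpr3 was not called, and Ryr2 and Itpr2 were too low to test. Ryr1 (chromosome 1), the ryanodine receptor of skeletal muscle, was low at 5.52, 4.36 and 4.22 CPM in siPUM2 1, 2 and 3 and 3.01, 3.38 and 3.85 CPM in NC 1, 2 and 3. The groups did not overlap, but the lowest siPUM2 library and the highest NC library were close. The log2 fold change was 0.46 ± 0.146 (SE; 1.37-fold, 95% interval 1.12 to 1.69; adjusted p = 0.0181, edgeR). This call did not survive the removal of siPUM2 1 (adjusted p = 0.149), NC 1 (0.103) or NC 2 (0.0601), all by edgeR. It was also lost by limma on log2(FPKM + 1) (adjusted p = 0.137) and on log2(FPKM + 0.1) (adjusted p = 0.132). In RefSeq, Ryr1 overlaps LOC103689966, at 2.80 CPM in siPUM2 and 2.68 CPM in NC (adjusted p = 0.816, edgeR), and the doubt over strand applies here too.

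Ryr2 (chromosome 17), the ryanodine receptor of the heart, was essentially undetected. It had 0 counts in each siPUM2 library and 2, 1 and 1 counts in NC 1, 2 and 3. A count of 0 allows up to 3 counts as a one-sided limit, or 0.102 to 0.108 CPM in the siPUM2 libraries before TMM factors. By the two-sided exact Poisson interval it allows up to 3.69 counts. The NC counts lie under both, so no difference was detectable at this depth. Ryr3, the third gene of the family and not a member, had 2, 1 and 1 counts in siPUM2 1, 2 and 3 and 0, 1 and 4 counts in NC 1, 2 and 3. Ryr1 therefore carried at least 95.7% of the family's FPKM in every library, as far as values rounded to 2 decimals show.

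Among the IP3 receptors, which release calcium on hormonal signals, the paralogs differed. Itpr1 (chromosome 4), the form best known from neurons and smooth muscle, was at 39.4, 37.2 and 43.8 CPM in siPUM2 1, 2 and 3 and at 29.9, 28.9 and 29.3 CPM in NC 1, 2 and 3. The NC libraries were nearly level and all lower, and the log2 fold change was 0.45 ± 0.0597 (SE; 1.37-fold, adjusted p = 1.06e-06, edgeR). Itpr3 (chromosome 20) was at 56.1, 53.8 and 56.6 CPM in the siPUM2 libraries and at 50.5, 51.0 and 52.4 CPM in the NC libraries. The groups did not overlap, but the difference was small (1.08-fold, 95% interval 1.02 to 1.15) and just missed the threshold (adjusted p = 0.0522, edgeR). Limma voom called it (adjusted p = 0.0353), and edgeR with the replicate number as a block called it too (adjusted p = 0.0404).

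Itpr2 (chromosome 4), the form that dominates in cardiac myocytes, was barely present. It had 1, 0 and 5 counts in siPUM2 1, 2 and 3 and 3, 10 and 9 counts in NC 1, 2 and 3. Single libraries of the groups overlapped, and the gene was too low for the filter. The summed counts were 6 in siPUM2 (exact Poisson 95% interval 2.20 to 13.1) and 22 in NC (13.8 to 33.3), and these intervals, which cover counting error only, did not overlap. Fitted without a filter, the gene had a log2 fold change of -1.75, with an unadjusted p of 0.0315 and an adjusted p of 0.131 by edgeR, and missed the threshold. The whole IP3 receptor family came to 9.12 ± 0.425 FPKM in siPUM2 and 7.77 ± 0.112 FPKM in NC (SD, n = 3 each). Itpr3 held 61.9%, 62.3% and 59.4% of it in siPUM2 1, 2 and 3 and 65.7%, 66.6% and 67.0% in NC 1, 2 and 3. Its share was lower in all 3 siPUM2 libraries, by 5.23 percentage points on average, with Itpr1 taking up the difference (exact two-sided permutation p = 0.10, the smallest possible).

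Casq2 (chromosome 2), the cardiac calsequestrin that buffers calcium inside the store, was the most abundant member. It was at 435, 456 and 439 CPM in siPUM2 1, 2 and 3 and at 319, 340 and 325 CPM in NC 1, 2 and 3. The lowest siPUM2 library lay far above the highest NC library. The log2 fold change was 0.44 ± 0.0276 (SE; 1.35-fold, 95% interval 1.30 to 1.41; adjusted p = 1.003e-12, edgeR), the lowest adjusted p of the set. In FPKM, Casq2 averaged 160 ± 4.13 in siPUM2 and 118 ± 3.89 in NC.

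Stim1 (chromosome 1), which senses store depletion, was at 64.4, 65.4 and 65.0 CPM in siPUM2 1, 2 and 3 and at 64.5, 60.4 and 62.4 CPM in NC 1, 2 and 3. NC 1 lay within the siPUM2 values, and the gene did not pass the test (adjusted p = 0.302, edgeR). The 95% interval of its fold change ran from 0.984 to 1.10, which excludes a rise as large as that of any of the 6 called members as estimated.

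**Figure D3:**
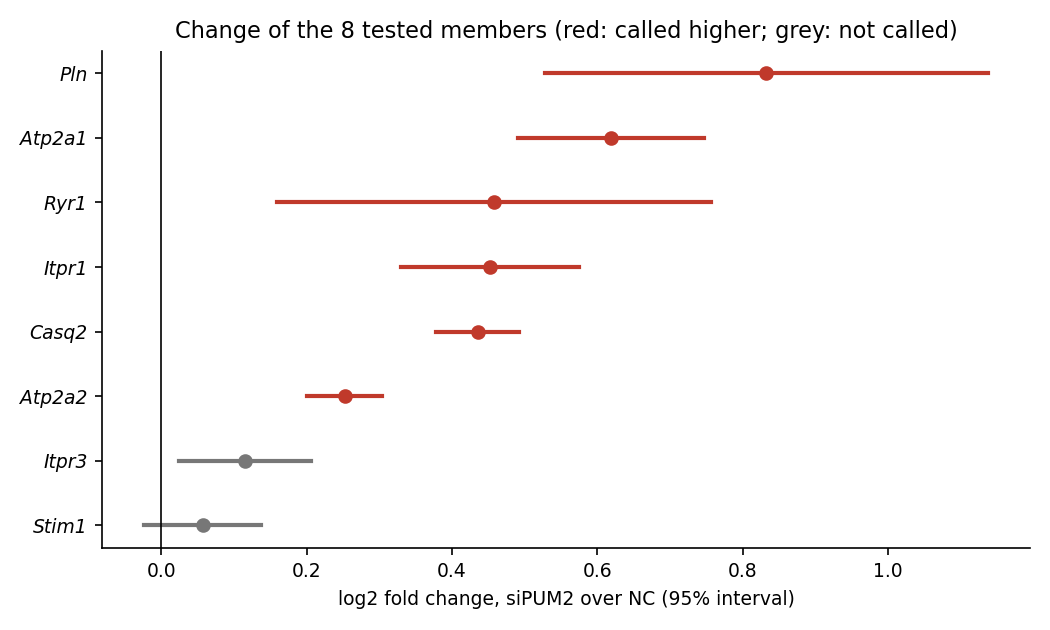
Log2 fold change (siPUM2 over NC) of the 8 tested members with 95% intervals from edgeR's quasi-likelihood fit, ordered by size; red marks genes called higher and grey those not called. Pln lies at 0.83 and Stim1 at 0.06, and the intervals of Pln and Ryr1, the genes with the lowest counts, are the widest.

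Ordered by FPKM, the members kept nearly the same ranks in both groups. Casq2 stood first in each, followed by Atp2a2 (62.4 ± 0.606 in siPUM2 and 52.5 ± 1.14 in NC) and Stim1 (15.0 ± 0.117 in siPUM2 and 14.4 ± 0.470 in NC; SD, n = 3 each). Below these, Atp2a1 (5.98 ± 0.333 FPKM) and Itpr3 (5.58 ± 0.145 FPKM) overlapped in siPUM2, whereas in NC Itpr3 (5.16 ± 0.112 FPKM) lay above Atp2a1 (3.90 ± 0.0666 FPKM) without overlap. Itpr1 (3.54 ± 0.295 in siPUM2 and 2.59 ± 0.0451 in NC), Pln (1.82 ± 0.215 in siPUM2 and 1.02 ± 0.147 in NC) and Ryr1 (0.270 ± 0.0436 in siPUM2 and 0.197 ± 0.0252 in NC) followed. All other neighbours in the order were apart in both groups. Itpr2 was last, at no more than 0.02 FPKM in any library, and Ryr2 had no FPKM value.

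Around these members, the wider calcium machinery was read from 9 lists set by role. Of 163 listed genes 143 had a row and 124 passed the filter. Of those 124, 42 rose, 13 fell and 69 did not pass, so that 33.9% were called higher and 10.5% lower, beside the 15.1% and 13.3% of all genes tested. The median log2 fold change over the 124 was 0.04. The lists too were chosen with earlier results of these data known, so their shares are no test against all genes. The counts of each list below stand beside the same 15.1% and 13.3%. Of the 55 calls, 39 were kept whichever library was left out.

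Among 16 tested partners of the release channels and proteins of the junction, 7 rose and 2 fell. Tmem38a and Tmem38b encode the TRIC channels, which let potassium balance the charge as calcium leaves the store. Tmem38a was at 44.7 ± 0.961 CPM in siPUM2 and 31.3 ± 1.12 CPM in NC (SD, n = 3 each; 1.43-fold, adjusted p = 1.99e-08, edgeR), and Tmem38b was at 31.6 ± 1.55 CPM in siPUM2 and 23.1 ± 1.10 CPM in NC (1.37-fold). Irag1, an IP3 receptor partner through which cGMP-dependent kinase acts in smooth muscle, rose 1.33-fold (adjusted p = 1.63e-09, edgeR). The FK506-binding proteins of the ryanodine receptors, Fkbp1a and Fkbp1b, did not pass (adjusted p = 0.446 and 0.922, edgeR).

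The list of pump partners and small regulators, which also holds Atp2a3 and phosphatase catalytic subunits, had a median log2 fold change of 0.03. Of its 9 tested genes 2 rose and 1 fell, where 28.4% of all genes tested were called. The thioredoxin-like membrane protein gene Tmx1 (1.08-fold) and sorcin (Sri, 1.08-fold) rose. The phosphatase gene Ppp1ca fell, at 699 ± 1.09 CPM in siPUM2 and 736 ± 13.5 CPM in NC (adjusted p = 0.0198, edgeR), a call lost without NC 1, NC 2, siPUM2 1 or siPUM2 2 (adjusted p up to 0.0910). Sarcolipin (Sln), the SERCA inhibitor of skeletal muscle and atria, had 1 to 6 counts a library. Myoregulin (Mrln), another small SERCA inhibitor, was at 13.0 ± 1.02 CPM in siPUM2 and 12.8 ± 0.809 CPM in NC and did not pass (adjusted p = 0.866, edgeR). Sln was too low for the filter, so of these inhibitors only Pln and Mrln were tested, and Pln was called.

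Proteins of the store interior went both ways, with 4 of 14 higher and 4 lower. Rcn2 (1.15-fold) and Nucb2 (1.12-fold), both encoding calcium-binding proteins of the secretory pathway, rose. Calumenin (Calu) fell, at 954 ± 6.07 CPM in siPUM2 and 1072 ± 3.46 CPM in NC (adjusted p = 2.51e-06, edgeR). Casq1, the calsequestrin of fast skeletal muscle, was at 18.7 ± 2.16 CPM in siPUM2 and 17.3 ± 1.22 CPM in NC and did not pass (adjusted p = 0.280, edgeR).

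For store-operated entry, in which STIM proteins open ORAI channels, 3 of 10 rose and none fell, where 28.4% of all genes tested were called in either direction. Saraf, which limits entry once the store refills, rose 1.16-fold (adjusted p = 4.19e-07, edgeR), and Cracr2b, an ORAI regulator, rose 1.50-fold to 7.82 ± 0.336 CPM, against 5.21 ± 0.450 CPM in NC. Orai1 itself rose 1.09-fold, a call lost without NC 1 (adjusted p = 0.0719) or siPUM2 3 (0.144). Stim2, at 46.1 CPM in siPUM2 and 46.6 CPM in NC, did not pass (adjusted p = 0.839, edgeR).

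At the plasma membrane, 5 of 13 channel genes rose and none fell, beside 15.1% of all genes tested called higher and 13.3% called lower. Of the 5, P2rx5 lost its call in 5 of the 6 fits that left out a library (adjusted p up to 0.288, edgeR). Trpv2, a cation channel gene, rose 1.69-fold (9.76 ± 0.883 CPM in siPUM2 and 5.80 ± 0.712 CPM in NC), the stretch-gated channel gene Piezo1 1.18-fold and the ATP-gated channel gene P2rx4 1.19-fold. Cacna1c, the cardiac L-type channel gene, did not pass (adjusted p = 0.290, edgeR). Of 9 extrusion genes 2 rose and 1 fell, where 28.4% of all genes tested were called in either direction. Neuroplastin (Nptn), a subunit of plasma membrane calcium pumps, was at 258 ± 2.29 CPM in siPUM2 and 176 ± 4.44 CPM in NC (1.46-fold, adjusted p = 9.58e-15, edgeR). The sodium-calcium exchanger gene Slc8a1 fell (log2 fold change -0.08, adjusted p = 0.0393) and the mitochondrial exchanger gene Slc8b1 rose (0.25, adjusted p = 0.00628). The Slc8a1 call was lost without NC 1, NC 2, siPUM2 1 or siPUM2 3 (adjusted p up to 0.217) and the Slc8b1 call without NC 2 or siPUM2 2 (up to 0.0700), which left 1 call in the extrusion list without NC 2.

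Signals that act on the store also rose more often than they fell. Of 23 genes of calmodulin, its kinases, calcineurin and NFAT, 9 rose and 1 fell (6 calls in all without NC 3). Ppp3r1, the regulatory subunit of calcineurin, was at 191 ± 2.21 CPM in siPUM2 and 138 ± 0.781 CPM in NC (1.38-fold, adjusted p = 9.52e-14, edgeR). Calm2, a calmodulin gene, rose 1.17-fold and the osmotic-stress factor gene Nfat5 1.20-fold. Reads of calmodulin genes could be split between near-identical copies, so the Calm2 value is uncertain. Of 16 genes upstream of IP3 and of protein kinase A, 8 rose and 2 fell. Phospholipase C beta 4 (Plcb4), which makes IP3, was at 67.0 ± 3.89 CPM in siPUM2 and 44.4 ± 3.19 CPM in NC (1.51-fold, adjusted p = 6.42e-10, edgeR). Prkacb, a catalytic subunit of the kinase that phosphorylates phospholamban, rose 1.38-fold, and its regulatory partner Prkar2a fell, at 107 ± 3.57 CPM in siPUM2 and 125 ± 2.05 CPM in NC (adjusted p = 9.04e-07, edgeR).

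Mitochondrial uptake, where calcium released from the store can end, had 2 genes higher and 2 lower of 14, where 28.4% of all genes tested were called. Of the 2 higher, Micu3 lost its call whichever library was left out (adjusted p up to 0.152, edgeR). Each of those fits left 1 gene higher and 2 lower. Mcu, the pore of the uniporter, fell, at 89.1 ± 1.60 CPM in siPUM2 and 101 ± 3.05 CPM in NC (adjusted p = 4.03e-05, edgeR). Hspa9, the mitochondrial chaperone, fell, at 185 ± 4.22 CPM in siPUM2 and 221 ± 8.90 CPM in NC.

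**Figure D4:**
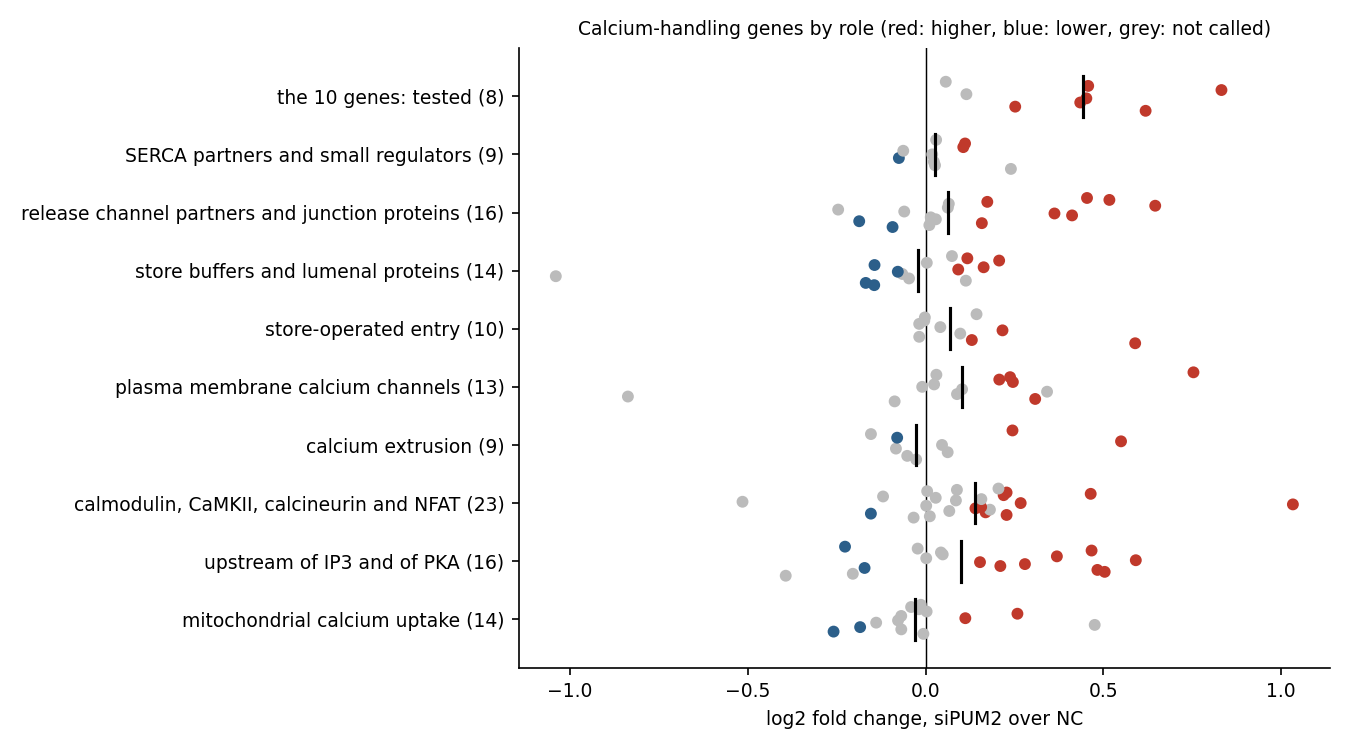
Log2 fold change (siPUM2 over NC) of each tested gene by role, with the 8 tested members in the top row, black ticks at the medians and the number tested in brackets; red points were called higher, blue lower and grey not called. The members' median lies at 0.44 and the list medians lie between -0.03 and 0.14.

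The genes whose log2 CPM followed that of Pln most closely over the 6 libraries were Tex101, Epb41l1, Bmpr2, Tmtc3 and Lrp10, with Pearson correlations of 0.995, 0.993, 0.993, 0.992 and 0.992, taken from 10671 candidate genes. All 5 rose in siPUM2, by log2 fold changes of 0.42, 0.17, 0.22, 0.21 and 0.09. The 6 points share the step between the groups, and 241 candidates had a correlation over 0.95. No member fell, so no such list was drawn for a falling gene. The calls for Epb41l1 and Lrp10 were lost without NC 1 (adjusted p = 0.0685 and 0.0549, edgeR), and that for Lrp10 also without siPUM2 1 (0.0645).

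Some markers of related cell types were called too, beside the 15.1% of all genes tested called higher and the 13.3% called lower. All 7 smooth muscle markers rose, with a summed level of 12227 to 12818 CPM in the siPUM2 libraries and 10741 to 10960 CPM in the NC libraries. Of 9 tested genes of skeletal myoblasts and myotubes 2 rose and 4 fell, and their list summed to 163 to 175 CPM in siPUM2 and 168 to 181 CPM in NC. The largest part of that sum was Myod1, at 84.2 CPM in siPUM2 and 81.3 CPM in NC and not called. Myog (0.459-fold), Myh3 (0.525-fold), Mymx (0.616-fold) and Tnni2 (0.632-fold) fell, and Des (1.12-fold) and Mymk (1.13-fold) rose. Of 6 tested cardiomyocyte genes 2 rose, Tnnt2 and Pln itself, and the list summed to 474 to 527 CPM in siPUM2 and 309 to 366 CPM in NC. Most of that sum was Tnnt2, at 436 to 494 CPM in siPUM2 and 274 to 330 CPM in NC. Myh6, Nkx2-5 and Gata4 pointed lower in siPUM2 and Nppb higher, none of them called. The part of these shifts in the rise of the store genes was not tested. Markers of other cells were low and called in neither direction: the endothelial list summed to 2.16 to 2.64 CPM in siPUM2 and 2.25 to 2.38 CPM in NC, and the Schwann or neural list to 0.534 to 0.756 CPM in siPUM2 and 0.828 to 1.08 CPM in NC. The macrophage list summed to 38.6 to 40.8 CPM in siPUM2 and 36.8 to 37.6 CPM in NC, nearly all of it Cd14. Of 3 tested fibroblast markers 1 rose and 1 fell, and the list summed to 16529 to 16966 CPM in siPUM2 and 16909 to 16991 CPM in NC.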

How the data were processed

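Raw counts per gene and FPKM to 2 decimals were used as the authors deposited them. HISAT2, DESeq2 and the build mRatBN7.2 are named in the submitters' processing notes; versions, the annotation and how reads were counted are not stated there. Per the labels' protocols, libraries were directional, from captured polyadenylated RNA.

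Genes were tested with the quasi-likelihood method of edgeR 4.0.16 in R 4.3.3 on the counts of all genes, with TMM factors, filterByExpr (12985 of 19825 genes kept; 0.0465% of counts removed) and group as the only term, called at an adjusted p under 0.05. It was tested on simulated data. CPM are TMM-scaled; the SE comes from the F statistic. Shares and ratios used FPKM and exact permutation tests. Promoter windows are from RefSeq (GRCr8). Alternatives included DESeq2 1.42.0 and limma 3.58.1. No library was a repeat of another: within groups, chi-square per degree of freedom was 2.07 to 3.83.

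The members and lists were chosen with earlier results of these data known. Besides the members and Pum2, genes named were the 3 lowest p of each role list and the 5 most like Pln; others named were chosen after their values were seen, and 1 gene under the rule is not reported here. Of 163 list entries 143 matched by symbol.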

Additional observations from a re-analysis of the deposited data

How the results depend on the processing

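Of the 8 tested members, Pln, Atp2a1, Atp2a2, Itpr1, Casq2 and Stim1 kept their direction and their side of the threshold under all 18 alternatives (other scaling factors, tests and filters, blocking on the replicate number, leaving out any library, log2 FPKM, removal of a gene length trend). Ryr1 lost its call under 6 of them and Itpr3 gained one under 2; no member reversed. The number of members called was 5 to 7, and leaving out each library gave 5 to 6. The log2 fold change of Pln ranged from 0.48, on log2(FPKM + 1), which understates low genes, to 0.92. Leaving out each library gave 3004 to 3538 called genes of all tested and 45 to 53 of the wider calcium genes. The count of all called genes moved to 2246 on log2(FPKM + 1) with no filter, a setting that tests more genes; the cause was not tested. Leaving out each library put the siPUM2 minus NC difference between 0.48 and 0.68 for Pln over Atp2a2 (log2), and, in percentage points, between 1.67 and 2.06 for the Atp2a1 share, -5.76 and -4.35 for the Itpr3 share and 0 and 2.17 for the Ryr1 share.

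Same-numbered libraries did not visibly deviate together (correlations 0.00240 to 0.0370, where the other pairs ran from -0.0600 to 0.0400). With 3 libraries a group this check cannot exclude a pairing. With the replicate block 3731 genes and 7 members were called, against 3692 and 6 without it. The exact permutation p of the Pln ratio and of the Atp2a1 and Itpr3 shares was 0.25 with the block and 0.10 without it. Each is the smallest its test can give, so the change in p carries no information. The ratio and share values are the same by construction. Of the siPUM2 libraries, siPUM2 1 correlated best with its own number, and the other two did not. Depth limits Ryr2, with 0 to 2 counts a library, and makes Itpr2, with 0 to 10, imprecise.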

Other observations

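Several calcium genes outside the naming rule changed by more than most of the wider lists and were chosen after their values were seen. Jsrp1, a protein of the skeletal muscle junction between surface membrane and store, was at 7.36 ± 0.309 CPM in siPUM2 and 4.70 ± 0.523 CPM in NC (SD, n = 3 each; 1.56-fold, adjusted p = 7.45e-05, edgeR's quasi-likelihood test). Akap6, which anchors protein kinase A near the ryanodine receptor in heart, was at 30.6 ± 3.36 CPM in siPUM2 and 21.6 ± 1.004 CPM in NC (1.42-fold). Ednra, an endothelin receptor that signals through IP3, was at 23.7 ± 1.13 CPM in siPUM2 and 16.9 ± 1.33 CPM in NC (1.40-fold). All 3 kept their calls whichever library was left out. Calreticulin (Calr) and the disulfide isomerase gene Pdia3, which serve the endoplasmic reticulum of all cells, fell: Calr was at 1809 ± 33.3 CPM in siPUM2 and 1999 ± 31.6 CPM in NC, and Pdia3 at 749 ± 16.8 CPM in siPUM2 and 827 ± 12.5 CPM in NC.

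Parts of the skeletal excitation machinery that work with Ryr1 were at low levels. Cacna1s, the voltage sensor, had 10, 13 and 10 counts in siPUM2 1, 2 and 3 and 17, 15 and 30 counts in NC 1, 2 and 3, and did not pass (adjusted p = 0.0942, edgeR). Stac3, needed to couple the sensor to the receptor, had 3, 6 and 4 counts in the siPUM2 libraries and 5, 1 and 18 counts in the NC libraries. The histidine-rich store protein gene Hrc had 9, 10 and 5 counts in the siPUM2 libraries and 16, 19 and 17 counts in the NC libraries, with an adjusted p of 0.0515 by edgeR.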
